A study of Mus musculus with 11 samples.

Results

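The Zfp genes are the mouse genes that GENCODE names with Zfp and a number, a naming class of zinc finger genes. Of 374 such genes among the 48709 gene identifiers counted, 259 had a mean of 5 or more CPM (raw counts per 1000000 counts of the library) over the 5 control libraries, and 115 lay under that level. The members were chosen by their control CPM values, and the same 5 libraries are the control side of every fold change below, so the levels are a description. Just inside the limit were Zfp963 at 5.15, Zfp568 at 5.17 and Zfp791 at 5.19 CPM, and just outside it were Zfp472 at 4.61, Zfp217 at 4.59 and Zfp939 at 4.58 CPM. All 259 members passed the filter on low counts and were tested. Of these, 258 were annotated as protein coding and 1, Zfp783, as a transcribed pseudogene.

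The libraries came from the CA1 field of the hippocampus of mice aged 3 months, 6 from CamkdeltaC transgenic animals and 5 from littermates without a named allele. As background, CamkdeltaC is the cytosolic splice form of calcium/calmodulin-dependent kinase II delta, and such mice, in which a heart muscle promoter drives the transgene, are used as a model of heart failure. The comparison therefore asked how CA1 RNA differed between mice with this heart transgene and their littermates. Animals of both sexes were used, the labels give no sex, litter or batch for a library, and nothing states that each library was a separate animal, so the p-values may measure technical spread.

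Zinc finger proteins of the C2H2 type carry short repeats in which a pair of cysteines and a pair of histidines hold a zinc ion, and arrays of these fingers read DNA sequence. Many carry a KRAB box, which recruits the corepressor Trim28 and with it the histone methyltransferase Setdb1 and HP1 proteins, and KRAB zinc finger proteins are known for silencing retroelements and keeping imprints. The KRAB genes lie in tandem clusters that grew by duplication, while zinc finger genes without the box include general transcription factors, chromatin partners and RNA-binding proteins.

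The fingers themselves show how far the members differ in base composition. The first finger lying within 1 exon is printed below for the 3 members with the largest falls and the 3 with the largest rises among those called, read 5′ to 3′ on the coding strand from GENCODE transcripts on mm10, with the codons of the zinc-binding cysteines and histidines in capitals. All 6 stretches are coding sequence, 63 bases long. The GC content of the stretch was 34.9% in Zfp738, 36.5% in Zfp942, 39.7% in Zfp943, 55.6% in Zfp428, 71.4% in Zfp771 and 57.1% in Zfp651. They lie at chr13:67671364-67671426 on the minus strand in exon 4 of 4 (Zfp738), chr17:21929032-21929094 on the minus strand in exon 6 of 6 (Zfp942), chr17:21992478-21992540 on the plus strand in exon 4 of 4 (Zfp943), chr7:24515450-24515512 on the plus strand in exon 3 of 3 (Zfp428), chr7:127253856-127253918 on the plus strand in exon 3 of 3 (Zfp771) and chr9:121766493-121766555 on the plus strand in exon 4 of 6 (Zfp651).
Zfp738: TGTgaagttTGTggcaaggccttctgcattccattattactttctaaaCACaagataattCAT
Zfp942: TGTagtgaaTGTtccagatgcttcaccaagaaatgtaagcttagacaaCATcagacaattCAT
Zfp943: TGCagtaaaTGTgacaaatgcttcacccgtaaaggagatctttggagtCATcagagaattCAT
Zfp428: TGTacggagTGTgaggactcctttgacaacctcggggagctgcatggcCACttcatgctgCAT
Zfp771: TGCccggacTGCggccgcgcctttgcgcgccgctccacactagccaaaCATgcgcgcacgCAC
Zfp651: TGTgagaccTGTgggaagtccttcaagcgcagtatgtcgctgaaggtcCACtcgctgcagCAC

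Translated coding sequences gave a KRAB A-box match in 127 members and none in 131. The C2H2 pattern was matched at a median of 10 places per protein, and at most 36. In 4 members it was not matched. The members' transcripts had a median GC content of 45.3%, with a range of 33.2% to 68.7%, against a median of 49.6% over the 17293 genes tested. KRAB members had a median of 42.9% and the others of 49.7%.

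In control CA1, member levels ran from 5.15 to 571 CPM with a median of 19.7 CPM. The most abundant member was Zfp365, the DISC1-binding zinc finger gene, with control values of 567, 580, 524, 571 and 615 CPM. Its transgenic values had a lowest, median and highest of 524, 565 and 597 CPM. The groups overlapped, and the log2 fold change was -0.04 (SE 0.05). Per kilobase of exon, Zfp365 also stood first, at 110 CPM per kb against 27.2 for Zfp706, 26.5 for Zfp106, 23.4 for Zfp692 and 22.9 for Zfp207. The median member stood at 4.04 CPM per kb. Zfp106, which encodes an RNA-binding protein needed by motor neurons, had 276 CPM ± 6.99 in control (SD, n = 5) and 276 ± 13.3 in transgenic libraries (SD, n = 6). Its level is uncertain, since 25.2% of its 50-base stretches occur in another annotated gene, mainly Gm26899. Zfp664 had 126 CPM ± 1.69 in control and 127 ± 3.84 in transgenic libraries. These 3 abundant members differed between genotypes by less than the spread between libraries. Zfp91, an E3 ubiquitin ligase of the non-canonical NF-kappa-B pathway, fell by 0.22 on the log2 scale (SE 0.07, edgeR quasi-likelihood adjusted p = 0.0426), from 154 ± 5.52 to 134 ± 15 CPM. It was called in 2 of 11 fits without a library, those without transgenic 5 or 6, and stood at -0.11 with the length trend removed (adjusted p = 0.230) and at -0.22 without the filter on low counts (adjusted p = 0.0710).

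Across the 259 members, 58 were lower in transgenic libraries, 14 were higher and 187 did not pass an adjusted p of 0.05. Over all genes tested, 10.5% were lower and 7.41% higher, and over tested genes that also had 5 CPM or more in controls these shares were 13.7% and 10.4%. The members' shares were 22.4% lower and 5.41% higher. The median log2 fold change of the members was -0.12, against 0.01 over all tested genes, and 177 of 259 values were below 0. At an unadjusted p under 0.05 there were 124 members. Leaving out each library in turn moved the count of lower members between 20, without control 4, and 84, without transgenic 6, and the count of higher members between 3 and 20, without those same libraries. The share of all tested genes called in those fits is not given here. All 72 called members kept their direction in all 11 such fits, and 18 lower and 2 higher members were called in every one. In bulk tissue, fewer cells of a type and less RNA per cell cannot be told apart.

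Fold changes followed the GC content of the transcripts. The 58 lower members had a median GC content of 39.9%, within 35.8% to 48.6%, while the 14 higher ones had a median of 58.6%, within 43.6% to 68.7%. Spearman's rho between log2 fold change and transcript GC content was 0.885 across the 259 members, 0.877 across the KRAB members, 0.839 across the others and 0.684 across all 17246 tested genes with a GC value. These points share the same 11 libraries, so the coefficients are descriptions. The coefficient was 0.832 for coding GC content, 0.80 for GC content at the third codon position, 0.364 for the GC content of the promoter (214 members), -0.27 for the number of fingers and -0.19 for exon length. The order by transcript and coding composition was therefore closer than that by promoter composition, finger number or length.

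**Figure D1:**
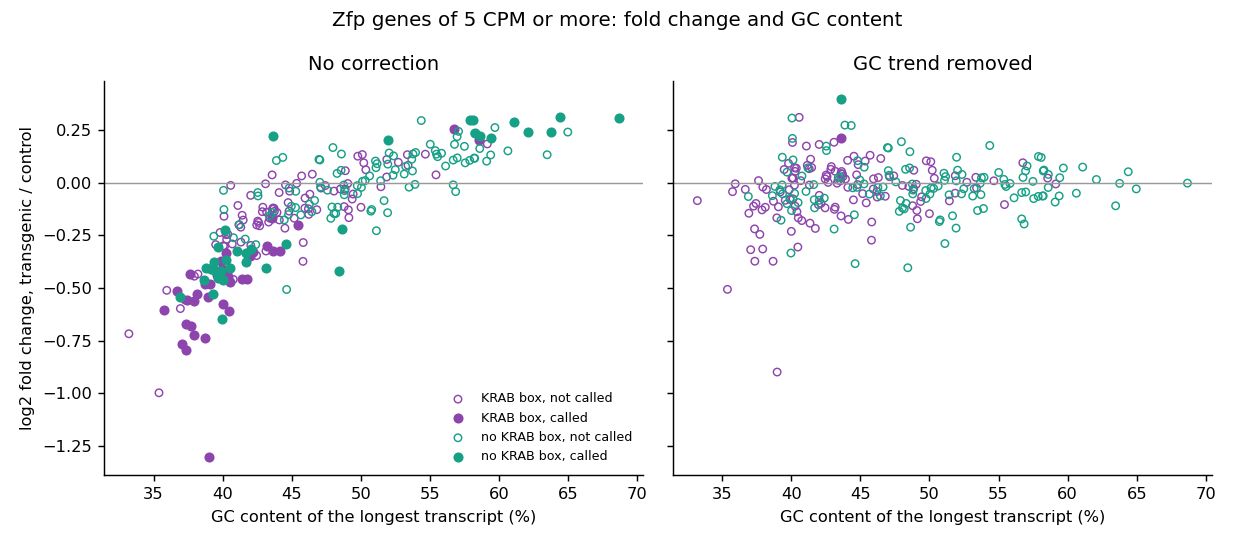
Log2 fold change (transgenic over control) of the 258 protein-coding members against the GC content of the longest transcript in percent, for KRAB and other members, with filled points at an adjusted p under 0.05. Without correction the points climb from the GC-poor to the GC-rich side (rho 0.885 over 259 members). With the GC trend of each library removed they lie around 0 (rho 0.143), with 2 members called.

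Divided by GC content, 31 of the 41 members under 40% fell, with a median log2 fold change of -0.51, and none rose. Of the 702 tested genes in that band with 5 CPM or more in controls, 64.4% fell and 0.142% rose, with a median of -0.42. Between 40% and 45%, 24 of 85 members fell (28.2%) and 1 rose, against 37.3% and 0.382% of such genes. Between 45% and 50%, 3 of 53 fell and none rose, against 8.07% and 2.72%. At 50% or more, 13 of 80 rose (16.3%) and none fell, against 20.0% rising and 0.375% falling among such genes. The median log2 fold change was -0.20 for members and for such genes between 40% and 45%, -0.05 against -0.04 between 45% and 50%, and 0.12 against 0.14 at 50% or more. These shares and medians were not tested against each other.

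**Figure D2:**
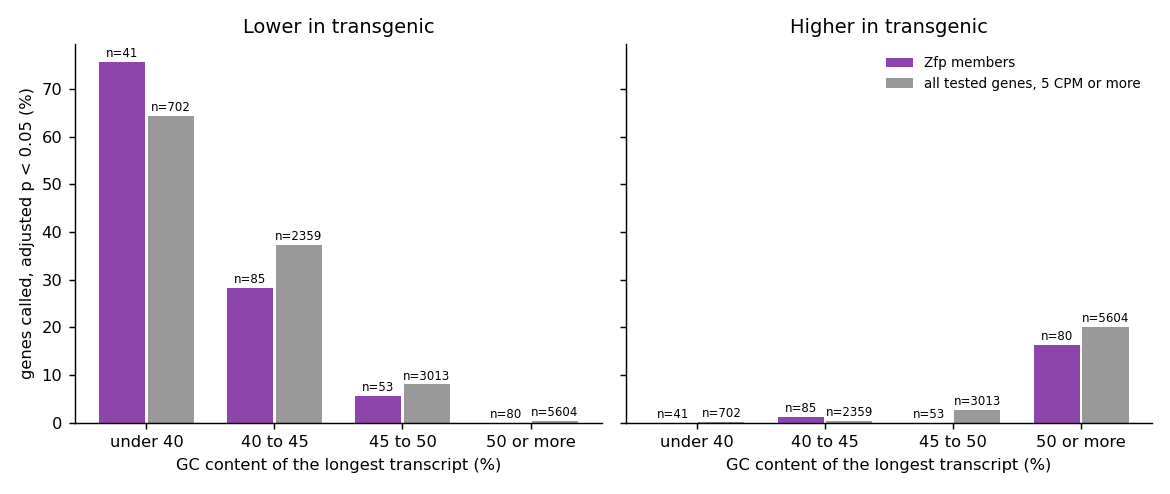
Share of genes called lower (left) or higher (right) in transgenic libraries, in percent, by GC content of the longest transcript, for the 259 members and for tested genes with 5 CPM or more in controls. Falls concentrate in the GC-poor bands (31 of 41 members under 40%) and rises in the GC-rich band (13 of 80).

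A fit in which each library's trend of counts with GC content was removed gave another picture. The GC slopes of the libraries, given below, did not overlap between the genotypes. Removing each library's trend therefore also removes any genotype difference that follows GC content, and this fit cannot tell such a difference from a library trend. No member was called lower and 2 were called higher, Zfp622 and Zfp426, against 0.821% lower and 1.16% higher over all tested genes. At an unadjusted p under 0.05 there were 44 members, and the smallest adjusted p among the 58 members that fell without the correction was 0.0776. The members' median log2 fold change was -0.02. Spearman's rho between log2 fold change and transcript GC content was then 0.143 across the members, 0.279 across the KRAB members and 0.043 across the others. Of the 72 called members, 61 had less than 50% of their uncorrected log2 fold change or one of opposite sign, although 54 of the 58 lower ones were still below 0. Removing a trend with exon length instead left 46 lower and 14 higher, against 7.12% and 5.52% over all tested genes. Removing both trends gave 0 lower and 4 higher (Zfp622, Zfp277, Zfp426 and Zfp638), against 0.544% and 1.16%. Under that double correction Zfp638 stood at 0.19 (adjusted p = 0.0374), while without it the gene had fallen (-0.23, adjusted p = 0.0408).

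The KRAB members and the others differed in their uncorrected values. Of 127 KRAB members 35 fell and 2 rose, with a median log2 fold change of -0.19. Of 131 others 23 fell and 12 rose, with a median of -0.01. Over tested genes with 5 CPM or more in controls, 13.7% fell and 10.4% rose. With the GC trend removed both class medians were -0.02, with 1 member called in each class. Over all tested genes 0.821% were then lower and 1.16% higher. Within GC bands the order of the classes was not the same. Under 40% GC, 20 of 29 KRAB members and 11 of 12 others fell, with medians of -0.54 and -0.42. Between 40% and 45%, 14 of 57 KRAB members and 10 of 28 others fell, with medians of -0.20 and -0.21. Of tested genes with 5 CPM or more in controls, 64.4% fell under 40% GC and 37.3% between 40% and 45%. A smaller share of KRAB members than of others fell in both GC-poor bands, a difference that was not tested. At 50% or more, 2 of 15 KRAB members and 11 of 64 others rose, with medians of 0.10 and 0.12. Of tested genes with 5 CPM or more in that band, 20.0% rose. Members with 15 or more fingers had a median of -0.25, those with 10 to 14 of -0.12, those with 5 to 9 of -0.04 and those with fewer of -0.04, and with the GC trend removed these became -0.04, -0.02, -0.01 and 0.01.

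The libraries differed in the same way as the genes. The members' mean log2 deviation from the average of all 11 libraries was -0.13, -0.13, -0.12, -0.09, 0.01 and 0.06 in transgenic 1 to 6 and 0.07, 0.02, 0.12, 0.10 and 0.11 in control 1 to 5. Transgenic 6 lay among the controls, transgenic 5 just under the lowest of them, and transgenic 1 to 4 further below. The slope of expression on GC content over all tested genes, in log2 per 10 points of GC, was 0.27, 0.26, 0.18, 0.10, 0.02 and -0.06 in transgenic 1 to 6 and -0.12, -0.06, -0.20, -0.22 and -0.16 in control 1 to 5. Libraries with a positive slope had the lower member means. The slopes did not overlap between the groups: the lowest transgenic slope was -0.0607 and the highest control slope was -0.0617. After removal of the GC trend, the member means lay between -0.05 and 0.02 in transgenic and between -0.02 and 0.03 in control libraries, and the groups overlapped. The members together took 7210 to 7920 CPM in transgenic and 7637 to 8108 CPM in control libraries.

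**Figure D3:**
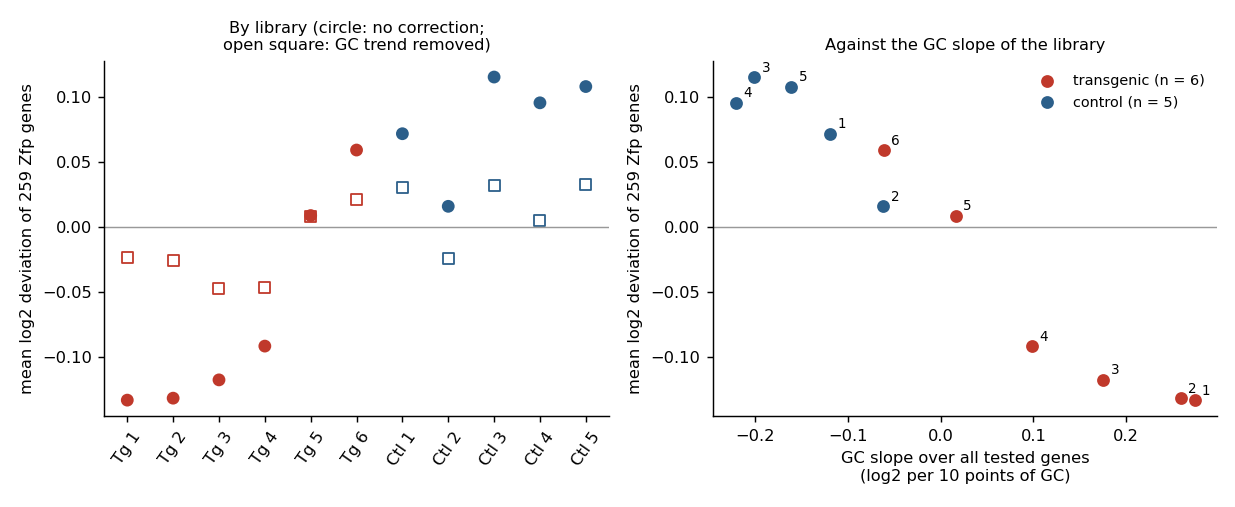
Mean log2 deviation of the 259 members in each library (left, circles without correction and open squares with the GC trend removed) and the same uncorrected mean against the library's GC slope in log2 per 10 points of GC (right, numbers are replicate names). Transgenic 1 to 4 lie lowest and have the steepest positive slopes, and transgenic 5 and 6 lie beside the controls.

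Total counts ran from 14263784, in control 5, to 36898689, in control 3. Camk2d, the gene of the transgene's kinase, had 40.6 to 135 CPM in transgenic and 53.0 to 94.0 CPM in control CA1 (log2 fold change -0.08, SE 0.29, adjusted p = 0.873), so it does not check the labels in this tissue. Summed CA1 pyramidal markers reached 4226 to 6129 CPM in transgenic and 4212 to 5075 CPM in control libraries, and no marker of that list passed the test. Dentate markers summed to 37.7 to 146 and 41.6 to 165 CPM. Of 5 microglial markers 2 rose (Csf1r and Trem2), while 7.41% of all tested genes were higher, and P2ry12 stood at -0.24 (adjusted p = 0.100). The 5 markers summed to 222 to 289 CPM in transgenic and 194 to 237 CPM in control libraries. The interneuron marker Slc32a1 (1 of 6) and the astrocyte marker Aldh1l1 (1 of 5) rose, while the summed interneuron markers, at 949 to 1083 and 913 to 1004 CPM, and astrocyte markers, at 1401 to 1796 and 1362 to 1718 CPM, overlapped between transgenic and control libraries. None of the 5 oligodendrocyte markers passed, with a median log2 fold change of 0.35 and sums of 3090 to 5290 CPM in transgenic and 2510 to 4350 CPM in control libraries. No tested marker of the CA3 and CA2, dentate, precursor, endothelium, or choroid plexus and ependyma lists passed. With the GC trend removed, Csf1r, Trem2, Slc32a1 and Aldh1l1 no longer passed (smallest adjusted p = 0.0512, Trem2). The part of these markers in the members' values was not tested.

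The member with the largest fall was Zfp738, a KRAB gene with 20 finger matches at chr13:67658685-67687071. Its control values were 11.1, 10.3, 12.4, 6.47 and 13.9 CPM, and its transgenic values had a lowest, median and highest of 0.205, 4.83 and 6.15 CPM. All 6 transgenic libraries lay below the lowest control, and transgenic 3 lay far below the rest. The log2 fold change was -1.30 (SE 0.41, edgeR adjusted p = 0.0426) and -0.90 with the GC trend removed (adjusted p = 0.275). It passed in 2 of the 11 fits without a library, 20.3% of its 50-base stretches occur in other annotated genes, and it overlaps Gm26587, so the value is uncertain.

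Most of the other large falls were neighbours. A stretch at chr17:21567008-23599487 held 12 members whose starts followed each other within 500 kb, 11 of them KRAB genes. Zfp942, Zfp943, Zfp994, Zfp944 and Zfp40 of this stretch fell, and its median log2 fold change was -0.64, or -0.20 with the GC trend removed. Between 0.0493% (Zfp40) and 18.2% (Zfp994) of the 50-base stretches of these 5 genes occur in another annotated gene. The 12 members had a median GC content of 37.8%, apart from Zfp13 at the far end with 59.1%, for which the log2 fold change was 0.10. Relative to the control mean, the median member of the stretch stood at -1.14, -0.96, -0.88, -0.70, -0.13 and -0.02 on the log2 scale in transgenic 1 to 6. In control 1 to 5 it stood at -0.09, -0.10, 0.16, 0.06 and -0.02. Transgenic 1 to 4 were below every control and transgenic 5 and 6 close to them, in the same order as the GC slopes of the libraries.

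**Figure D4:**
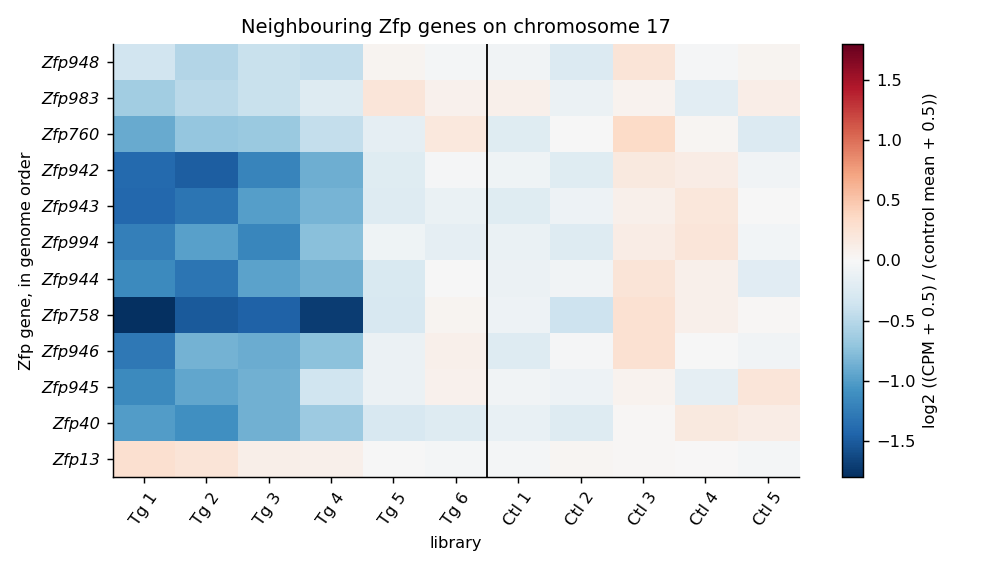
Level of the 12 neighbouring chromosome 17 members in each library, as log2 of CPM plus 0.5 over the control mean plus 0.5, with genes in genome order. Transgenic 1 to 4 are low for the genes from Zfp942 to Zfp40, transgenic 5 and 6 are near the controls, and the GC-rich Zfp13 is not low in any library.

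Zfp943, a KRAB gene of 507 residues with 11 finger matches at chr17:21962552-22071168, had control values of 21.7, 23.6, 27.1, 29.1 and 25.1 CPM. Its lowest, median and highest transgenic values were 9.21, 13.2 and 23.3 CPM. 5 of 6 transgenic libraries lay below the lowest control, and the groups overlapped through transgenic 6. The log2 fold change was -0.76 (SE 0.21, adjusted p = 0.0296), and -0.32 with the GC trend removed (SE 0.12, adjusted p = 0.185). Zfp942, its neighbour on the other strand at chr17:21926960-21962464, had control values of 19.3, 17.4, 23.1, 22.4 and 19.5 CPM and transgenic values of 6.95, 9.70 and 20.0 CPM (lowest, median, highest). Transgenic 1 to 4 lay below all controls and transgenic 5 and 6 within them. Its log2 fold change was -0.79 (SE 0.24, adjusted p = 0.0411), and -0.37 with the GC trend removed. Of the 11 fits without a library, Zfp943 was called in 4, and Zfp942, Zfp944 and Zfp994 in 3 each.

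These 2 genes start head to head. The windows from 250 bases before to 50 after each start, in RefSeq on GRCm38.p6, overlapped by 194 bases. The same held for Zfp944 and Zfp758, whose windows overlapped by 162 bases, and among the 214 members with a promoter sequence these were the only 2 such pairs on opposite strands. Zfp944 fell by 0.74 on the log2 scale (adjusted p = 0.0336), and Zfp758 stood at -1.0 without passing the test (adjusted p = 0.0581). The window of Zfp943 is printed because it holds the starts of both falling genes, and that of Zfp771 because this GC-rich gene rose. Capitals mark CG dinucleotides. The first is chr17:21962309-21962608 on the plus strand, with 21 CG dinucleotides and 59.7% GC, and the second is chr7:127244276-127244575 on the plus strand, with 25 and 71.7%.
Zfp943: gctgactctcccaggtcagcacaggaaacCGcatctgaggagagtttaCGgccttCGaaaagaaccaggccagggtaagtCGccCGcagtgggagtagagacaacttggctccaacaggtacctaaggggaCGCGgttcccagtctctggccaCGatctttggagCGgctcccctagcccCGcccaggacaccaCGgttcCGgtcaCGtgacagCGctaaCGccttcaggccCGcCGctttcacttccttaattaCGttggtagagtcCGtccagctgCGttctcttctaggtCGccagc
Zfp771: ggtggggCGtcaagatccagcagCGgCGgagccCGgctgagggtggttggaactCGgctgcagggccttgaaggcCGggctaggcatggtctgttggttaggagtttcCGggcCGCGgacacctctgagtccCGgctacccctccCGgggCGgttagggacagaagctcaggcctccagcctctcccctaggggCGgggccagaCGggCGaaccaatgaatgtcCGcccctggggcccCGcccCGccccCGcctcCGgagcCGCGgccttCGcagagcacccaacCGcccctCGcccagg

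Both windows are rich in G and C, whereas the transcripts differ, with 37.1% GC in Zfp943 and 68.7% in Zfp771. Over the 214 members the median promoter had 55.7% GC and 16 CG dinucleotides, against 60.7% and 20 over 12307 tested genes. On either strand, the ETS core CCGGAAG was present in 20.1% of member promoters and 16% of all promoters, and the TATA box TATAAA in 6.54% and 7.42%. The Zfp943 and Zfp771 windows held neither string.

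Other runs of neighbouring members also differed in their medians, and an effect of position was not tested. Over all tested genes, 10.5% were lower and 7.41% higher. In all, 131 members lay in 21 runs of 3 or more neighbours, and chromosome 7 alone carried 70 members. A second chromosome 17 run of 10 members (chr17:32765496-33631779) had 4 that fell and a median log2 fold change of -0.32, or -0.02 with the GC trend removed. The chromosome 13 run that holds Zfp738 had 8 KRAB members, of which 4 fell, a median of -0.48, and -0.11 with the GC trend removed. At chr7:127233061-127885996, 8 members with a median GC content of 53.5% had a median log2 fold change of 0.11, and 1 of them rose. With the GC trend removed their median was -0.02. The largest run, 14 members at chr7:29768552-30169750 with a median GC content of 46.7%, had 1 member that fell. Its median was -0.09, or -0.01 with the GC trend removed. Among these 5 runs, counting the chromosome 17 stretch above, those of lower GC content had the lower medians. They were picked from the 21, and the order did not hold over all runs. A run of 3 members on chromosome 16 with a median GC content of 45.7% had a median of -0.37. At chr7:6131491-6396915, 5 members with 46.3% had a median of -0.005.

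Zfp40, in the chromosome 17 stretch, and Zfp932 and Zfp711 outside it completed the 8 largest falls. From here on, transgenic values given in threes are the lowest, median and highest library. Zfp40 had control values of 26.7, 25.0, 30.0, 33.4 and 32.5 CPM against 13.4, 17.2 and 25.0 CPM in transgenic libraries. It fell by 0.68 (SE 0.15, adjusted p = 0.0153) and was called in all 11 fits without a library, although transgenic 6 lay within the controls. With the GC trend removed Zfp40 stood at -0.25 (adjusted p = 0.0977). Zfp932 at chr5:109996521-110010411, a KRAB gene known to act on endogenous retroviruses, had control values of 23, 19.3, 23.5, 25.8 and 23.9 CPM against 10.2, 14.3 and 19.5 CPM. It fell by 0.67 (SE 0.16, adjusted p = 0.0160), with 5 of 6 transgenic libraries below every control, but 45.2% of its 50-base stretches also occur in another gene, mainly Gm15446, so reads could be split between them.

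Members known for imprints and retroelements were otherwise not called. Of the 6 tested, 1 fell and none rose, against 10.5% and 7.41% of all tested genes. Zfp445, which with Zfp57 protects imprints, stood at -0.19 (adjusted p = 0.0628), Zfp57 at -0.28 (adjusted p = 0.146), Zfp809, known for silencing murine leukaemia virus, at -0.17 (adjusted p = 0.234), Zfp37 at -0.25 (adjusted p = 0.0877) and Zfp568 at -0.03 (adjusted p = 0.918). None of the 6 passed with the GC trend removed, and at an unadjusted p under 0.05 the whole set of members held 44 genes.

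The genes that work with KRAB proteins gave a mixed result. Of 18 tested, 5 fell and 1 rose, against 10.5% and 7.41% of all tested genes, with a median log2 fold change of -0.11. With the length trend removed 3 fell (Cbx3, Fam208a and Pphln1) and none rose. Trim28, the corepressor that KRAB boxes bind, rose by 0.16 with an adjusted p of 0.04999, from 132 to 150 CPM, and stood at 0.15 with the length trend removed (adjusted p = 0.0696) and at -0.03 with the GC trend removed. Setdb1 stood at 0.05 (adjusted p = 0.478). The HP1 genes Cbx3 and Cbx5 fell by 0.28 and 0.25, and the remodeller Smarcad1 fell by 0.31. Fam208a, which encodes the TASOR subunit of the HUSH silencing complex, fell by 0.74 (SE 0.15, adjusted p = 0.0123), from 74.6 to 45.3 CPM, and its HUSH partner Pphln1 fell by 0.23. Mphosph8, the third HUSH subunit, stood at -0.11 (adjusted p = 0.245). Fam208a alone of the 18 passed with the GC trend removed (-0.36, adjusted p = 0.0314), and with GC and length trends removed none passed (Fam208a -0.30, adjusted p = 0.0580).

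Among RNA and ribosome factors, 3 of 8 fell and 2 rose, against 10.5% and 7.41% of all tested genes, with a median log2 fold change of -0.09. Zfp207, which encodes the spindle protein BuGZ that stabilises Bub3, had control values of 147, 134, 163, 166 and 151 CPM and transgenic values of 109, 116 and 131 CPM. The groups did not overlap, and it fell by 0.38 (SE 0.07, adjusted p = 0.0114), called in all 11 fits without a library, and stood at -0.12 with the GC trend removed (adjusted p = 0.151). Zfp326, a subunit of the DBIRD complex that links transcript elongation and splicing, fell by 0.46 (SE 0.11, adjusted p = 0.0155), from 38 ± 3.81 to 27.8 ± 4.71 CPM, and stood at -0.06 with the GC trend removed. Zfp598, the ubiquitin ligase that senses collided ribosomes, rose by 0.21 (SE 0.06, adjusted p = 0.0280), from 51.2 ± 4.25 to 60.0 ± 2.55 CPM, with a GC content of 59.4%, and stood at 0.02 with the trend removed.

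Zfp622, a factor in maturation of the large ribosomal subunit, rose with and without the GC correction. It lies at chr15:25984366-25998481. Its longest transcript has a GC content of 43.6%, while its coding sequence has 58.1% and the third codon position 70.6%. Its control values were 32.8, 36.5, 32.2, 29.3 and 34.7 CPM, and its lowest, median and highest transgenic values were 36.4, 39.2 and 40.7 CPM. 5 of 6 transgenic libraries lay above the highest control, and the groups overlapped through 1 library. The log2 fold change was 0.22 (SE 0.06, adjusted p = 0.0212), and it was 0.40 with the GC trend removed (SE 0.08, adjusted p = 0.0314). It was called in 8 of 11 fits without a library, and with the GC trend also removed in 3 of 11, those without transgenic 5, transgenic 6 or control 2 (log2 fold change 0.35 to 0.45, adjusted p up to 0.0924). It was the only rise among the 85 members between 40% and 45% GC. Zfp426, a KRAB gene with 26.5 ± 0.842 CPM in control and 27.5 ± 2.0 CPM in transgenic libraries, stood at 0.04 without correction (adjusted p = 0.696) and at 0.21 with the GC trend removed (adjusted p = 0.0462), a call that held in 1 of 11 such fits without a library (adjusted p up to 0.125).

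Of 11 chromatin partners, 3 fell and none rose, against 10.5% and 7.41% of all tested genes, with a median log2 fold change of -0.02. With the length trend removed, Zfp644 and Zfp711 fell and Zfp516 rose (0.22, adjusted p = 0.0447). Zfp644, a partner of the histone methyltransferases G9a and GLP, had control values of 65.0, 62.2, 69.4, 66.4 and 65.3 CPM against 42.3, 49.1 and 61.6 CPM in transgenic libraries. The groups did not overlap, and it fell by 0.41 (SE 0.09, adjusted p = 0.0130). Zfp451, a SUMO ligase, fell by 0.33 (SE 0.08, adjusted p = 0.0179), from 67.9 ± 4.01 to 54.8 ± 7.04 CPM, and stood at -0.14 with the length trend removed (adjusted p = 0.142). Zfp711 on the X chromosome, which binds the demethylase PHF8 and is linked to intellectual disability, fell by 0.65 (SE 0.18, adjusted p = 0.0270), from 18.7 ± 1.93 to 12 ± 3.86 CPM, and was called in 5 of 11 fits without a library. With the GC trend removed, Zfp644 stood at -0.03, Zfp451 at -0.04 and Zfp711 at -0.33, and none passed.

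Of 17 members listed here as transcription factors with a named role, 5 fell and 2 rose, against 10.5% and 7.41% of all tested genes. Their median log2 fold change was -0.04. The list takes in Zfp365, in which the C2H2 pattern was not matched. Zfp91, described above, is 1 of the 5, and it lost its call with the length trend removed. Zfp148, also called ZBP-89, a factor that binds GC-rich promoters, had control values of 99, 99, 111, 110 and 108 CPM and transgenic values of 68.7, 79.5 and 95.7 CPM. The groups did not overlap, and it fell by 0.42 (SE 0.07, adjusted p = 0.0111), and stood at -0.07 with the GC trend removed (adjusted p = 0.205). With GC content taken over all transcripts instead of the longest it was called, at -0.14 (adjusted p = 0.0468). Zfp292, a gene linked to neurodevelopmental disorders, fell by 0.40 (adjusted p = 0.0119), and Zfp131, a BTB-domain factor, fell by 0.30 (adjusted p = 0.0229). Zfp281, known from pluripotent cells, fell by 0.41 (adjusted p = 0.0231), while Zfp574 rose by 0.24 (adjusted p = 0.0306). With the GC trend removed, Zfp292 stood at -0.09, Zfp131 at 0.05, Zfp281 at -0.22 and Zfp574 at 0.06, and none of these passed.

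The 8 largest rises were smaller than the falls, from 0.24 to 0.31 on the log2 scale, in transcripts of 56.8% to 68.7% GC. Zfp651 was the most abundant of them, with control values of 102, 110, 98.5, 88.9 and 94.3 CPM and transgenic values of 112, 122 and 133 CPM. The groups did not overlap, and it rose by 0.30 (SE 0.06, adjusted p = 0.0125), called in all 11 fits without a library, although it overlaps E530011L22Rik. Zfp428, of 189 residues with 1 finger match, had control values of 22.8, 24.1, 22.6, 21.5 and 23.7 CPM against 25.8, 28.2 and 32.6 CPM. All transgenic libraries lay above all controls, and it rose by 0.31 (SE 0.07, adjusted p = 0.0177), with 14.1% of its 50-base stretches in another annotated gene. Zfp771, whose GC-rich finger and promoter are printed above, had control values of 29.7, 28.5, 25.3, 22.9 and 24.0 CPM against 29.3, 33.3 and 35.8 CPM. The groups overlapped by 1 transgenic library, and it rose by 0.31 (SE 0.08, adjusted p = 0.0254), called in 5 of 11 fits without a library. Zfp513, which overlaps Snx17 on an unstranded count, rose by 0.29 (adjusted p = 0.0160), and Zfp467, known from the choice between fat and bone cells, rose by 0.30 (adjusted p = 0.0193). With the GC trend removed, Zfp651 stood at 0.12, Zfp467 at 0.12, Zfp513 at 0.07, Zfp428 at 0.05 and Zfp771 at -0.002, and none passed.

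**Figure D5:**
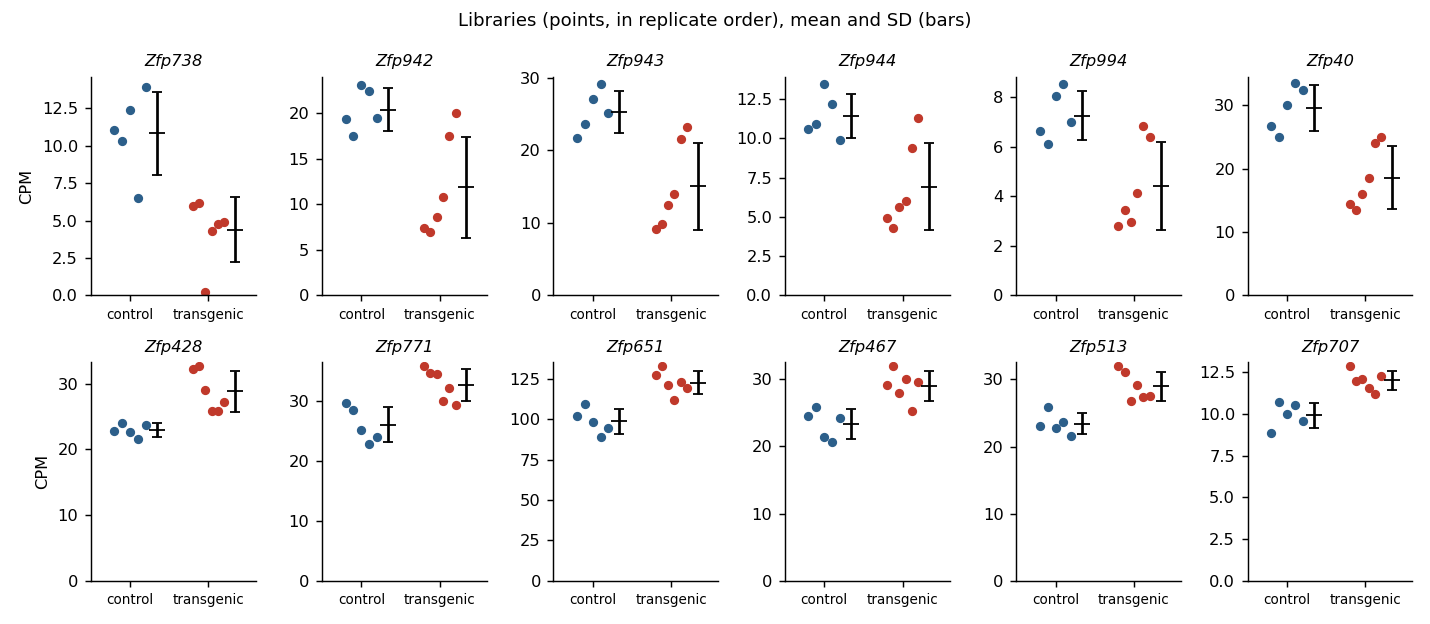
CPM in each library for the 6 named members with the largest falls (top) and the 6 with the largest rises (bottom), points in replicate order and bars for mean and SD, each axis starting at 0. Zfp942, Zfp943, Zfp944, Zfp994 and Zfp40 lie nearer to control levels in transgenic 5 and 6 than in the other transgenic libraries, whereas Zfp651 and Zfp428 lie above all controls in all 6 transgenic libraries.

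Members whose CPM did not overlap between genotypes were counted whether called or not. In 7 all transgenic values were lower (2.70% of members, against 3.23% over all tested genes). In 11 all were higher (4.25%, against 4.98%). Both shares were near the background. Of 30 Zbtb genes with 5 CPM or more in controls, 10 fell and 1 rose, against 13.7% and 10.4% of all tested genes at that level, with a median log2 fold change of -0.08, and with the GC trend removed none was called. Of 18 Zkscan and Zscan genes, 4 fell, with a median of -0.02, and of 11 Klf genes, none fell and 1 rose, with a median of -0.06. In the authors' deposited tables, which list 2014 genes as lower and 1780 as higher, 72 members were listed as lower, of which 57 were called here, and 18 as higher, of which 14 were called here. The number of genes the authors tested is not known here, so these counts have no share over all genes beside them.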

How the data were processed

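Polyadenylated RNA of dissected CA1 was sequenced as single-end reads after an unstranded TruSeq preparation, per the labels' protocols, so overlapping and antisense genes cannot be told apart. The authors deposited raw counts per gene for each library. FastQC 0.11.5, STAR 2.5.2b, featureCounts, Subread 1.5.1 and the build mm10 are named per the submitters' processing notes, while counting settings were not stated. Tables of higher and lower genes were deposited as well, with a log2 fold change, a p-value and adjusted p-value, and a per-library signal, and these were used only to count listed members.

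The counts were tested with edgeR 4.0.16 in R 4.3.3 (TMM, filterByExpr, quasi-likelihood F test, 17293 genes holding 99.9% of counts), transgenic against control over all 11 libraries, with Benjamini-Hochberg adjustment over all genes and a threshold of 0.05. The members and lists were chosen with earlier results of these data known. GC content was that of the longest GENCODE transcript and length that of the exon union. Their trends were removed per library by lowess (span 0.3) as an offset. KRAB boxes were called at 10 of 14 A-box positions and fingers by the C2H2 pattern on translated coding sequences. Shared sequence is the share of 50-base stretches found in another annotated gene. Promoters are RefSeq windows, found for 214 members. The 35 named members are those with the highest CPM, the largest called falls and rises, members called with the GC trend removed, the smallest adjusted p of each role list, and those at the limit of 5 CPM. Members or list genes named beside them were chosen after their values were seen. Totals of 14263784 to 36898689 counts set the precision, for counting error only. Alternatives were DESeq2 1.42.0, limma 3.58.1 voom, other scalings, filters and member rules, a replicate block and leaving out each library. The fit was also run on simulated counts, which held either no GC trend or a single slope set by genotype. They did not carry the GC trends of the separate libraries, so they do not check the calls made here.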

Additional observations from a re-analysis of the deposited data

Results flagged for a closer look

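Zfp738 had 0.205 CPM in transgenic 3, whereas the other 5 transgenic libraries had 4.32 to 6.15 CPM. The gap to the nearest library exceeded Dixon's 95% limit. Chance gives such a mark in about 1 in 20 groups, and of 76 groups of libraries checked this was the only 1 marked. The gene shares 20.3% of its 50-base stretches with another annotated gene, and its log2 fold change of -1.30 passed in 2 of 11 fits that left out a library.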

How the results depend on the processing

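Counts of lower and higher members were 58 and 14, against 10.5% and 7.41% of all tested genes. With the GC trend removed they were 0 and 2 (median log2 fold change -0.021), against 0.821% and 1.16%. With GC and length trends removed they were 0 and 4 (median -0.020), against 0.544% and 1.16%. With GC content taken over all transcripts, an alternative added after seeing the data, they were 1 and 1 (median -0.029). For this and all further alternatives the share over all tested genes is not given here. Their counts therefore do not show a change particular to the members. Without a filter on low counts 48 members were lower and 8 higher. Leaving out each library gave 20 to 84 lower and 3 to 20 higher. With the GC trend also removed, which was added after seeing the data, it gave 0 to 8 lower and 0 to 6 higher, with the most calls without transgenic 6, and with medians of -0.020, -0.020, -0.018, -0.014, -0.031 and -0.025 without transgenic 1 to 6 and -0.013, -0.031, -0.017, -0.025 and -0.020 without control 1 to 5. Choosing members by the mean over all 11 libraries left 57 and 14, by the transgenic mean 54 and 15, and by at most 5% shared sequence 47 and 10.

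The labels' replicate numbers did not pair the libraries: same-numbered pairs correlated at 0.20, -0.03, -0.19, -0.05 and 0.02 after removal of group means, and none best with its own number. With the replicate block 85 members were lower and 18 higher, and with the replicate block and the GC trend removed 5 and 3 (median -0.024). In the latter fit Zfp40, Zfp263, Zfp281, Zfp367 and Zfp711 were lower, and Zfp277, Zfp622 and Zfp821 higher. DESeq2 called 73 and 18, and limma voom 87 and 21.

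Named members that turned were Zfp579 (-0.0034 with the GC trend removed, -0.013 with GC and length removed, -0.038 with the block and GC), Zfp771 (-0.0022, -0.034 and -0.0057 in the same order), Zfp131 (0.050, 0.046 and 0.067), Zfp644 (0.033 with GC and length removed) and Zfp451 (0.037 with GC and length removed). The cause was not tested. GC content over the union of exons was not run, because no genome was used here. The transgene's level cannot check the labels in CA1.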
